A study of Mus musculus with 12 samples.

Results

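The splicing factor genes described here are the probe sets whose gene symbol belongs to one of 4 symbol families: the SR proteins (Srsf), the heterogeneous nuclear ribonucleoproteins (Hnrnp), the SF3a and SF3b subunits (Sf3a and Sf3b) and the snRNP core proteins (Snrp). There were 39 such genes among 16475 tested probe sets, with 10 Srsf, 14 Hnrnp, 8 Sf3a or Sf3b and 7 Snrp genes on 16 chromosomes. The same symbols matched 53 RefSeq genes, so the families are not complete here and their counts cover measured genes only. They were chosen by symbol alone, but the families were picked with results of these arrays in view, so the tests below come from the fit over all probe sets and are not independent support for the choice.

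RNA was profiled on 12 Affymetrix Mm430_2.0 arrays in 4 groups of 3. The groups were 3T3-ind-IER2 #11 cells (here #11 cells) given 200 nM RSL for 24 h, #11 cells given DMSO, parental NIH 3T3 cells (here parental cells) given the same dose of RSL for 24 h, and parental cells given DMSO. NIH 3T3 is a line of mouse embryonic fibroblasts. The #11 cells are 1 clone of it with mouse IER2 placed behind a RheoSwitch promoter, by which the ligand RSL switches the transgene on, so that a difference between #11 and parental cells cannot be told apart from a difference of this 1 clone, its selection or its culture. The labels call the arrays biological replicates without saying whether they came from separate cultures, and p-values then measure the spread between these arrays.

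Pre-mRNA splicing is carried out by the spliceosome, which assembles anew on each intron from small nuclear ribonucleoproteins (snRNPs). The Snrp genes encode the Sm proteins that form a ring on the spliceosomal RNAs, and proteins bound to the U2 snRNP. SF3a and SF3b are parts of the U2 snRNP that hold it at the branch point. SR proteins mostly bind exons and recruit the splicing machinery, whereas hnRNP proteins coat the nascent transcript and often keep sites from being used. Many genes of the SR and hnRNP families control their own mRNA through exons that lead to its decay. The arrays give 1 value per gene, drawn from the probes assigned to it, which does not tell its isoforms apart. They measure the mRNA of these factors and not splicing itself.

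All values are log2 expression as deposited, and a gene was said to pass at an adjusted p under 0.05 in limma over the 16475 probe sets. Array medians lay between 7.03 and 7.06, and arrays of 1 group correlated at 0.998 to 0.999. All 10 fibroblast markers lay above the median probe set, against 1 of the 23 markers of epithelial, macrophage, endothelial and neuronal cells, which was Csf1r. The means of the 4 lists of other cell types lay between 6.01 and 6.43 on every array. Of the 23 markers, 2 were higher and 5 lower in #11 than in parental cells under RSL, and 2 were higher and 3 lower under DMSO, led by Cd68 (0.30 and 0.40) and Tubb3 (-0.57 and -0.47). Of the 10 fibroblast markers, 4 were higher and 3 lower under RSL, and 5 higher and 3 lower under DMSO, led by Col1a1 (0.999 and 0.73) and Pdgfrb (-0.33 and -0.67). The part of either group of markers in the results below was not tested. Of the 39 splicing factor genes, 38 lay above that median too, and their means over all arrays ran up to 12.09. Srsf12, a repressor of the SR family, was the exception, with a mean of 5.66 at percentile 1.7 of all probe sets. Ier2, the gene on the construct, stood at 8.55 ± 0.10 (SD, n = 3) in #11 cells labelled RSL, against 9.02 ± 0.06 (SD, n = 3) in #11 cells labelled DMSO, a log2 fold change of -0.47 (adjusted p = 4.64e-05). The sources used here do not give where its probes lie relative to the cloned cDNA, so the signal does not check the labels, and every RSL effect below is that of the arrays labelled RSL.

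The largest differences within the 4 families lay between the 2 cell lines. Hnrnpa0, Hnrnph3, Srsf10 and Snrpd3 were lower in #11 than in parental cells under both treatments, and Hnrnpa2b1, Sf3a1 and Sf3a3 were higher. Of the 39 genes, Hnrnpa0, Hnrnph3 and Srsf10 had the most negative log2 fold changes under DMSO. For these genes and for Sf3a1, a gene that was higher, the bases before an annotated start are printed as context. They are RefSeq sequences of build GRCm38.p6, 250 bases each, read 5′ to 3′ in the direction of the gene. The windows are Hnrnpa0 chr13:58128557-58128806 on the minus strand, Hnrnph3 chr10:63023850-63024099 on the minus strand, Srsf10 chr4:135855821-135856070 on the plus strand and Sf3a1 chr11:4160104-4160353 on the plus strand. The starts used for Srsf10 and Hnrnph3 are inner ones, so that the Srsf10 window lies within the annotated gene and the Hnrnph3 window overlaps it. Capitals mark matches, on either strand, to the motifs searched.
Hnrnpa0: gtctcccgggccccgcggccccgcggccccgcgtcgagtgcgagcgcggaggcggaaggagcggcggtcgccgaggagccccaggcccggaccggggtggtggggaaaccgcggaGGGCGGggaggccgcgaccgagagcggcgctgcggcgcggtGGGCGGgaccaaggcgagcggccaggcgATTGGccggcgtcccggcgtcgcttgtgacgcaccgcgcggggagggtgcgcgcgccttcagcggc
Hnrnph3: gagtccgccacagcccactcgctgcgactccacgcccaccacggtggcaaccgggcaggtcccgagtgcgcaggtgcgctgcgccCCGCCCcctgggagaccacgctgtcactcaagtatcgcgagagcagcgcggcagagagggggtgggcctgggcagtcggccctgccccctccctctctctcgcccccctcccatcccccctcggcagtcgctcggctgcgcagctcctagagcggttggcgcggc
Srsf10: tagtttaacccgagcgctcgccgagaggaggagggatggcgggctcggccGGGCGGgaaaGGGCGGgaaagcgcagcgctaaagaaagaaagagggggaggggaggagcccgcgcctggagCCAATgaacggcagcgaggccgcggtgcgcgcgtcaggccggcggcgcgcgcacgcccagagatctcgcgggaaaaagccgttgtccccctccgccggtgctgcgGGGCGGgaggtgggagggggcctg
Sf3a1: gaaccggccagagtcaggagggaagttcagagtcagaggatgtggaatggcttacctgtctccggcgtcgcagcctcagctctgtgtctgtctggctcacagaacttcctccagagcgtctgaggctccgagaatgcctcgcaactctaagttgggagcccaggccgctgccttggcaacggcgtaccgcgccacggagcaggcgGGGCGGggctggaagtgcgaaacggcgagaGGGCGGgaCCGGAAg

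The Hnrnpa0 window had a GC content of 81.2%, 2 GC boxes and 1 CCAAT box, and the Hnrnph3 window 73.6% and 1 GC box. The Srsf10 window had 72.0%, 3 GC boxes and 1 CCAAT box, and the Sf3a1 window 64.0%, 2 GC boxes and, 7 bases before the start, 1 ETS core. None of the 4 windows held a TATA box. The 5 motifs were searched on both strands in the 44 windows of the 34 splicing factor genes with an entry and in all 32851 windows of this length; none of the 5 contains another. The GC box, GGGCGG, the letters that Sp1 binds, was in 72.7% of the splicing factor windows and in 32.7% of all windows. The ETS core, CCGGAA, was in 50% and 12%, and the CCAAT box, CCAAT, in 40.9% and 33.8%. The E-box, CACGTG, was in 2.27% and 6.02%, and the TATA box, TATAAA, in 9.09% and 12.4%. The median GC content was 61.2% in the splicing factor windows and 52.4% in all. In the 12 windows of genes that were lower in #11 cells under both treatments, the GC box was in 75%, the CCAAT box in 50% and the ETS core in 33.3%; in the 32 windows of the other splicing factor genes these shares were 71.9%, 37.5% and 56.2%. These are matches of letters and not sites shown to be bound.

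Under RSL, 15 of the 39 genes were lower in #11 than in parental cells and 4 were higher. Of all probe sets, 16.8% were lower and 17.5% higher in that comparison. Under DMSO, 19 were lower and 3 were higher, against 14.5% and 15.2% of all probe sets. A one-way analysis of only the 2 groups compared, with each gene's own variance and Benjamini-Hochberg adjustment, gave fewer. It had 8 lower and 2 higher under RSL and 16 lower and 1 higher under DMSO. The methods name a one-way analysis of variance at a nominal p, so these are not the authors' counts. The shares of all probe sets above are from limma. Those of the one-way analysis are not given here, so the drop is not read as particular to these genes. In limma, 1 was higher under DMSO without #11 DMSO replicate 1. The median log2 fold change over the 39 genes was -0.08 under RSL and -0.10 under DMSO, beside -0.02 and -0.01 over all probe sets. In number, 24 of the 39 lay below 0 under RSL (23 with array medians subtracted, 24 with quantile normalization repeated) and 30 under DMSO (30 under both scalings), which is 61.5% and 76.9%, beside 57.5% and 53.3% of all probe sets. Without regard to a test, each #11 array lay below each parental array in 17 genes under RSL, against 23.3% of all probe sets, and in 21 genes under DMSO, against 20.2%. Each #11 array lay above each parental array in 8 genes under RSL, against 21.2% of all probe sets, and in 3 under DMSO, against 20%. Among the 9885 probe sets left after the lowest 40% of mean log2 were removed, 24.7% were lower and 28.2% higher under RSL, beside 18 and 5 of the 38 splicing factor genes left, and 23.9% and 24.9% under DMSO, beside 20 and 3.

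**Figure D1:**
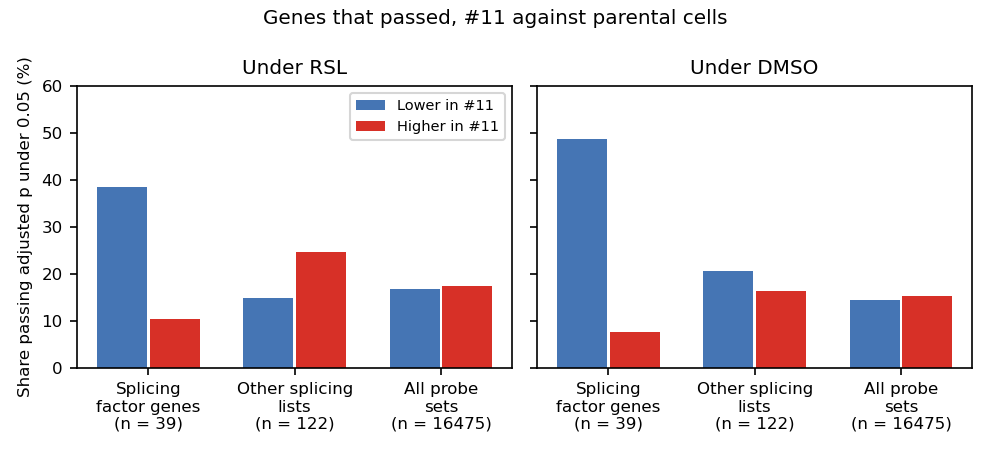
Share of genes that passed an adjusted p under 0.05 in limma, in percent, for #11 against parental cells under RSL (left panel) and under DMSO (right panel). Bars stand for genes lower (blue) and higher (red) in #11 cells among the 39 splicing factor genes, 122 other splicing genes and all 16475 probe sets; 38.5% and 48.7% of the splicing factor genes were lower, against 16.8% and 14.5% of all probe sets.

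The comparisons under RSL and under DMSO take their means from separate arrays. They share the same 2 cell lines and the spread estimated over all 12 arrays. In both, 14 genes were lower (93.3% of those lower under RSL and 73.7% of those lower under DMSO), and 3 were higher. Over all probe sets, 66.3% of those lower under RSL were also lower under DMSO and 76.8% of those lower under DMSO also under RSL, with 11.1% of the table lower in both and 12.3% higher in both. No gene of the 39 passed in opposite directions, and 15 passed in neither. For 14 genes all 6 #11 arrays lay below all 6 parental arrays, and for 3 they lay above. Of the 14 genes that passed as lower under both treatments, 11 had all #11 arrays below all parental arrays. The shares of all probe sets for these counts and for passing in neither were not computed. On 3 against 3 arrays, 23.3% of all probe sets under RSL and 20.2% under DMSO had each #11 array below each parental array. Each lay above in 21.2% and 20%. The counts therefore describe these genes and are not read as particular to them.

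Of the 14 hnRNP genes, the largest of the 4 families, 8 were lower and 1 was higher in #11 cells under each treatment. Of all probe sets, 16.8% were lower and 17.5% higher under RSL, and 14.5% and 15.2% under DMSO. The counts of the other families below stand against these shares too. Hnrnpa0, an hnRNP that binds AU-rich mRNA elements, is on chromosome 13 (Entrez gene 77134, chr13:58125879-58128556). It read 10.96, 10.93 and 11.003 in #11 cells under RSL, against 11.48, 11.50 and 11.48 in parental cells under RSL. It read 10.97, 10.98 and 11.02 in #11 cells under DMSO, against 11.49, 11.47 and 11.48 in parental cells under DMSO. The #11 and the parental arrays were apart by far more than either varied, with no overlap. The log2 fold change was -0.52 under RSL (standard error 0.03, adjusted p = 1.64e-09) and -0.49 under DMSO (standard error 0.03, adjusted p = 4.17e-09), that is 1.44-fold and 1.40-fold lower.

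Hnrnph3, a relative of the G-run binding protein hnRNP H, is on chromosome 10 (Entrez gene 432467, chr10:63014664-63023980). It read 8.09, 8.07 and 8.08 in #11 cells under RSL, against 8.49, 8.47 and 8.44 in parental cells under RSL. It read 8.16, 8.20 and 8.19 in #11 cells under DMSO, against 8.64, 8.73 and 8.65 in parental cells under DMSO. The 4 groups did not overlap at any point, in the order #11 RSL, #11 DMSO, parental RSL and parental DMSO from low to high. Between the cell lines the log2 fold change was -0.39 under RSL (standard error 0.03, adjusted p = 1.12e-07) and -0.49 under DMSO (standard error 0.03, adjusted p = 9.16e-09).

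A further 6 hnRNP genes were lower in #11 cells under both treatments. Hnrnpul2, a relative of the scaffold protein hnRNP U, differed by -0.15 under RSL and -0.26 under DMSO (adjusted p = 0.00208 and 2.00e-05). Hnrnpll, which regulates splicing of the phosphatase gene Ptprc in lymphocytes, differed by -0.23 and -0.19 (adjusted p = 4.28e-05 and 0.000407). Hnrnpl, its relative that binds CA-rich RNA, differed by -0.23 and -0.19 (adjusted p = 0.000197 and 0.00131). For these 3 genes and for Hnrnpm all 6 #11 arrays lay below all 6 parental arrays. Hnrnpc, a binder of uridine tracts in nascent RNA, differed by -0.12 and -0.19 (adjusted p = 0.0315 and 0.00231). Hnrnpm and Hnrnpd, also known as AUF1, an mRNA decay factor, were closest to the threshold under RSL, at -0.10 and -0.09 (adjusted p = 0.0432 and 0.0492). Both calls under RSL were lost with array weights, with array medians subtracted and with only the arrays compared (adjusted p up to 0.0704 for Hnrnpm and 0.0836 for Hnrnpd), and that of Hnrnpd also with an intensity trend in the variances. Hnrnpm and Hnrnpd stood at -0.19 and -0.12 under DMSO (adjusted p = 0.000630 and 0.0114).

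Hnrnpa2b1, which encodes the RNA transport and packaging proteins hnRNP A2 and B1, went the other way. It read 10.25, 10.42 and 10.13 in #11 cells under RSL, against 9.79, 9.87 and 9.98 in parental cells under RSL. It read 10.32, 10.26 and 10.12 in #11 cells under DMSO, against 9.96, 10.07 and 10.06 in parental cells under DMSO. All 6 #11 arrays lay above all 6 parental arrays, the closest at 10.12 and 10.07. The log2 fold change was 0.39 under RSL (standard error 0.07, adjusted p = 0.000214) and 0.20 under DMSO (standard error 0.07, adjusted p = 0.0302). The call under DMSO was lost without #11 DMSO replicate 1 or 2 or parental DMSO replicate 1 (adjusted p up to 0.141).

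The other 5 hnRNP genes passed in neither comparison. Among them, Hnrnph1, which binds G-runs, had the widest spread of the 39 genes (standard error 0.10). It read 10.28, 10.51 and 10.00 in #11 cells under RSL, against 10.06, 10.18 and 10.20 in parental cells under RSL, and 10.42, 10.20 and 10.12 in #11 cells under DMSO, against 10.29, 10.47 and 10.49 in parental cells under DMSO. The groups overlapped, and the log2 fold change was 0.12 under RSL and -0.17 under DMSO (adjusted p = 0.388 and 0.228). Near-identical relatives and pseudogenes of hnRNP genes could share signal on an array, which was not tested.

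**Figure D2:**
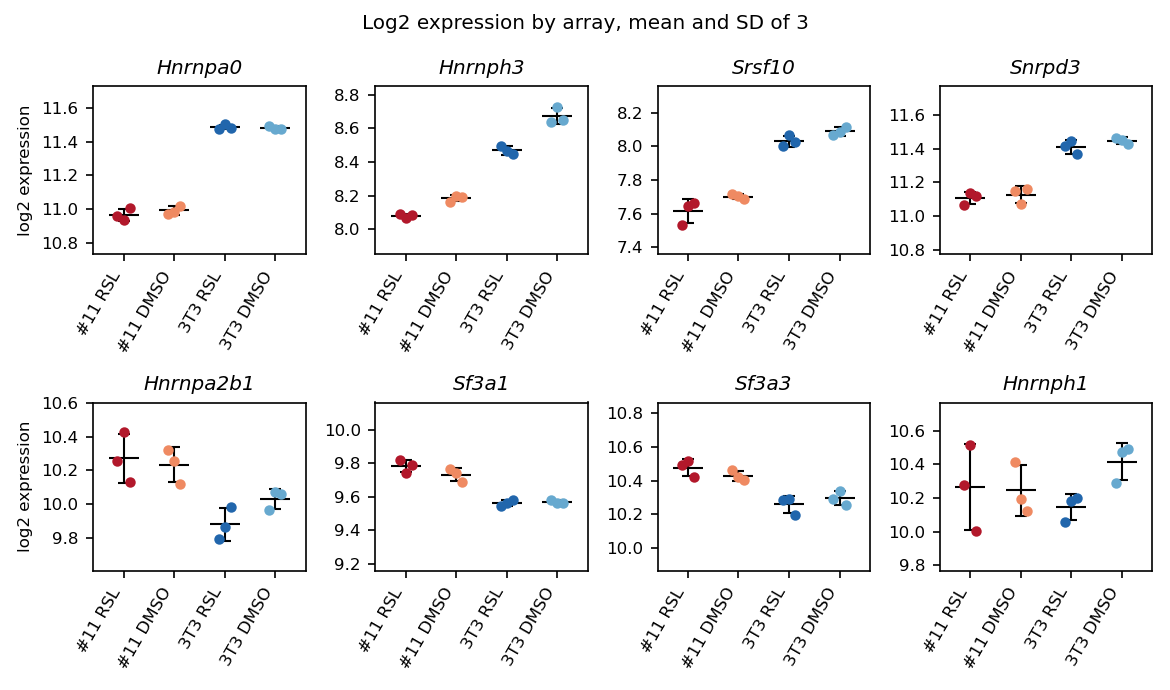
Log2 expression of 8 splicing factor genes by group, with 1 point per array, the mean as a long bar and the SD of 3 arrays as whiskers; each panel has its own scale, and #11 RSL, #11 DMSO, parental 3T3 RSL and parental 3T3 DMSO run from left to right. Hnrnpa0, Hnrnph3, Srsf10 and Snrpd3 lay lower on all 6 #11 arrays, Hnrnpa2b1, Sf3a1 and Sf3a3 lay higher on them, and Hnrnph1 overlapped between the groups.

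Among the 10 SR protein genes, 5 were lower and 1 was higher in #11 cells under RSL, and 4 were lower and 0 higher under DMSO. Srsf10, an SR protein that acts as a splicing repressor when it loses its phosphates, as after heat shock, is on chromosome 4 (Entrez gene 14105, chr4:135855752-135869908). It read 7.53, 7.64 and 7.66 in #11 cells under RSL, against 8.0, 8.07 and 8.03 in parental cells under RSL. It read 7.72, 7.70 and 7.69 in #11 cells under DMSO, against 8.07, 8.08 and 8.12 in parental cells under DMSO. The 2 cell lines did not overlap. The log2 fold change was -0.42 under RSL (standard error 0.04, adjusted p = 1.91e-07) and -0.39 under DMSO (standard error 0.04, adjusted p = 5.13e-07).

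Srsf3, the smallest SR protein and an adaptor of mRNA export, Srsf6 and Srsf11 were lower under both treatments as well. Srsf3 differed by -0.15 under RSL and -0.24 under DMSO (adjusted p = 0.0231 and 0.00113), and Srsf6 by -0.20 and -0.13 (adjusted p = 8.81e-05 and 0.00347). Srsf11 differed by -0.10 under both (adjusted p = 0.0297 under RSL and 0.0411 under DMSO), and its call under DMSO was lost with array medians subtracted and with only the arrays compared (adjusted p = 0.0551 and 0.0665). Srsf5 and Srsf4 passed under RSL alone. Srsf5 read 11.62, 11.58 and 11.75 in #11 cells under RSL, against 11.81, 11.84 and 11.83 in parental cells under RSL (log2 fold change -0.18, adjusted p = 0.0120). Under DMSO it read 11.70, 11.80 and 11.91 in #11 cells, against 11.87, 11.84 and 11.76 in parental cells, and these overlapped (-0.02, adjusted p = 0.815). Srsf4 was the only SR gene that was higher, with 9.76, 9.76 and 9.68 in #11 cells under RSL, against 9.62, 9.54 and 9.54 in parental cells under RSL (0.16, adjusted p = 0.00306). Its value under DMSO was 0.05 (adjusted p = 0.379). Srsf1, the founding SR protein, and Srsf2, the marker protein of nuclear speckles, passed in neither comparison.

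SF3a and SF3b had calls in both directions. Sf3a1 and Sf3a3, which encode subunits of the SF3a complex of the U2 snRNP, were higher in #11 cells. Sf3a1 read 9.82, 9.74 and 9.79 in #11 cells under RSL, against 9.54, 9.56 and 9.58 in parental cells under RSL. It read 9.76, 9.74 and 9.69 in #11 cells under DMSO, against 9.58, 9.56 and 9.56 in parental cells under DMSO. No arrays of the 2 lines overlapped, and the log2 fold change was 0.22 under RSL and 0.16 under DMSO (standard error 0.03 each, adjusted p = 4.79e-05 and 0.000865). Sf3a3 read 10.49, 10.52 and 10.42 in #11 cells under RSL, against 10.29, 10.29 and 10.20 in parental cells under RSL, and 10.46, 10.42 and 10.40 in #11 cells under DMSO, against 10.29, 10.34 and 10.26 in parental cells under DMSO. Its log2 fold change was 0.22 under RSL and 0.13 under DMSO (adjusted p = 0.000253 and 0.0132). The third SF3a subunit, Sf3a2, differed by -0.02 under RSL and -0.04 under DMSO (adjusted p = 0.729 and 0.537). Of the SF3b genes, Sf3b2 and Sf3b3 were lower under DMSO, at -0.10 and -0.11 (adjusted p = 0.0307 and 0.0127). Both were at -0.08 under RSL, just short of the threshold (adjusted p = 0.0574 and 0.0580). Sf3b1, the branch point protein that is often mutated in human myelodysplasia, differed by 0.08 under RSL and -0.03 under DMSO (adjusted p = 0.116 and 0.693).

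Snrpd3 and Snrpd1, which encode the Sm ring proteins D3 and D1, were lower in #11 cells under both treatments. Snrpd3 (Entrez gene 67332, chr10:75518042-75535440) read 11.07, 11.13 and 11.12 in #11 cells under RSL, against 11.41, 11.45 and 11.37 in parental cells under RSL. It read 11.15, 11.07 and 11.16 in #11 cells under DMSO, against 11.47, 11.45 and 11.43 in parental cells under DMSO. The 2 cell lines did not overlap, and the log2 fold change was -0.30 under RSL and -0.32 under DMSO (standard error 0.04 each, adjusted p = 4.18e-06 and 2.81e-06). Snrpd1 differed by -0.21 and -0.25 (standard error 0.04 each, adjusted p = 0.000884 and 0.000226), again with no overlap. Snrpe and Snrpf, which encode other Sm ring proteins, and Snrpa1, which encodes the U2 protein A′, were lower under DMSO, at -0.16, -0.18 and -0.21. Under RSL these 3 were at -0.09, -0.12 and -0.11 and did not pass (adjusted p = 0.195, 0.0538 and 0.0878). Snrpb, which encodes the Sm proteins B and B′, and Snrpb2, which encodes the U2 protein B″, passed in neither comparison.

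**Figure D3:**
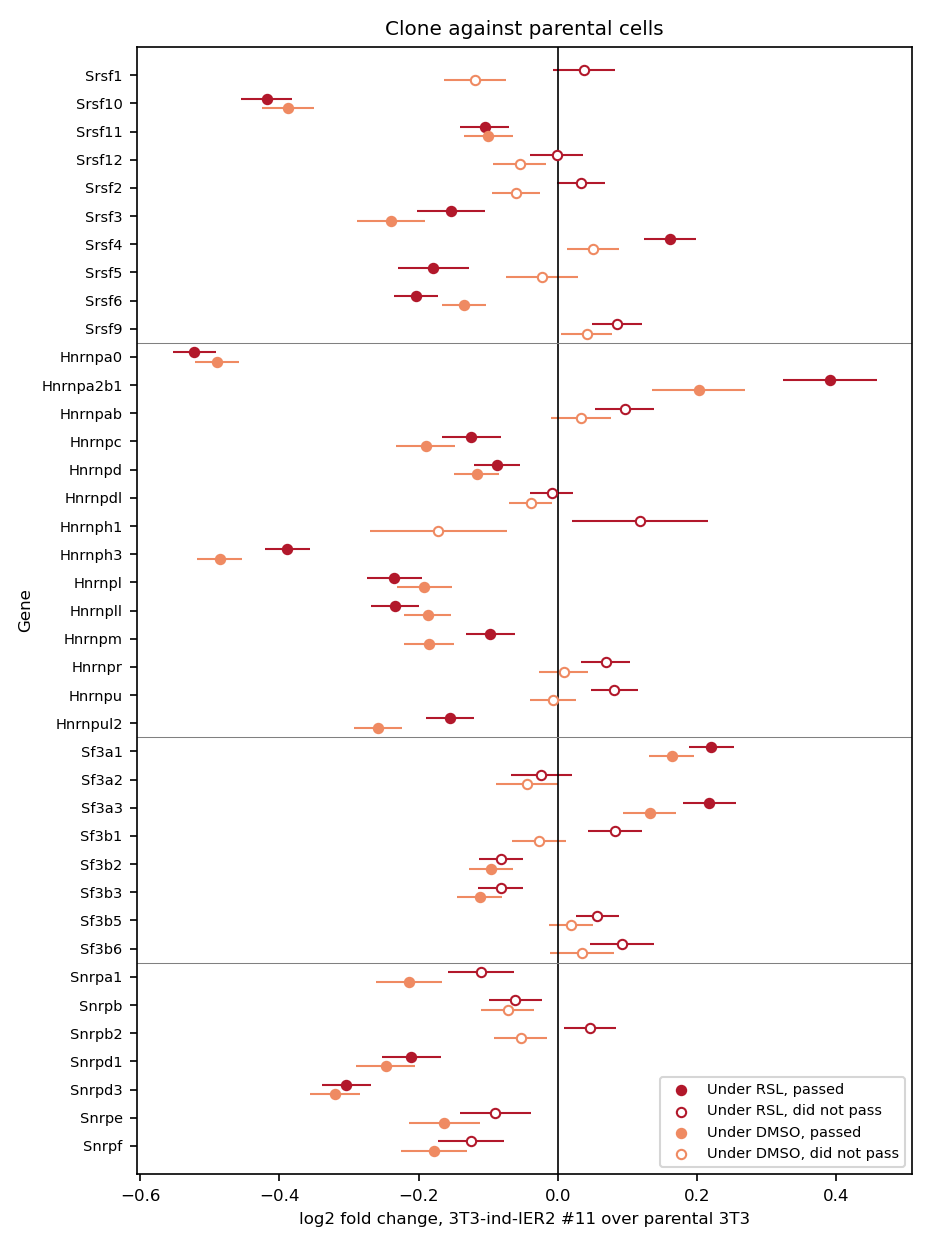
Log2 fold change of #11 over parental cells for each of the 39 splicing factor genes, under RSL (red) and under DMSO (orange), with the standard error as a bar. Filled points passed an adjusted p under 0.05 and open points did not; the values ran between -0.52 for Hnrnpa0 and 0.39 for Hnrnpa2b1, both under RSL.

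The calls differed in how far they rested on single arrays. Of the 19 calls under RSL, 13 held whichever of the 12 arrays was left out, and of the 22 under DMSO, 14 did. Under RSL the calls of Srsf3, Srsf5, Srsf11, Hnrnpc, Hnrnpd and Hnrnpm were lost without at least 1 array. Under DMSO those of Srsf11, Hnrnpa2b1, Hnrnpd, Sf3a3, Sf3b2, Sf3b3, Snrpe and Snrpf were. In the RSL comparison, #11 RSL replicate 3 was the lowest of its group in 26 of the 39 genes. Without it 8 genes were higher in place of 4. The SD of this array over all probe sets was 1.48, against 1.50 for each of the other arrays of the group. The part this plays in the counts was not tested. Other arrays were uneven too. The highest of the group was #11 RSL replicate 2 in 24 genes and #11 DMSO replicate 1 in 22. Parental DMSO replicate 1 was the lowest in 21 and replicate 2 the highest in 20.

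No splicing factor gene passed the threshold between RSL and DMSO in #11 cells. This comparison alone does not separate the ligand from the transgene it switches on. Of the 39 genes, 0 passed in limma, against 2.54% of all probe sets. With array weights 2 were lower, Hnrnph3 and Srsf5, and the share of all probe sets with weights is not given here. In the one-way analysis of the 2 groups compared, with Benjamini-Hochberg adjustment, 0 passed. At an unadjusted p under 0.05, 5 were lower and 0 higher, against 6.04% of all probe sets that were lower. The median was 0.00 over the 39 genes, as over all probe sets, and values ran between -0.15 for Srsf5 and 0.07 for Srsf4, with 19 genes below 0 (20 with array medians subtracted, 15 with quantile normalization repeated). In 4 genes, each RSL array lay below each DMSO array, against 8.75% of all probe sets, and these were Srsf10, Srsf6, Hnrnph3 and Hnrnpll. Their log2 fold changes were -0.09, -0.07, -0.11 and -0.08 (adjusted p = 0.321, 0.347, 0.127 and 0.301). The 95% intervals of the 39 genes reached down to -0.26, for Srsf5, and up to 0.23, for Hnrnph1. Each is the interval of a single gene from the limma fit, not widened for the number of genes. They do not bound the effects of all 39 together.

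In parental cells, which carry no construct in the labels, 1 of the 39 genes passed in the RSL comparison, against 0.0303% of all probe sets in either direction. It was Hnrnph3, at -0.20 (standard error 0.03, adjusted p = 0.0421), with 8.49, 8.47 and 8.44 under RSL, against 8.64, 8.73 and 8.65 under DMSO. It was the single probe set of the whole table that was lower, which is 0.00607%. The call held without #11 RSL replicate 2 or 3 or parental DMSO replicate 1 and was lost without each of the other 9 arrays (adjusted p from 0.0408 to 0.271), with the log2 fold change between -0.22 and -0.17. In #11 cells the same gene was at -0.11 (adjusted p = 0.127), and the difference of the 2 effects was 0.10 (adjusted p = 0.555).

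Small shifts below 0 were common in parental cells. Of the 39 genes, 34 lay below 0 (38 with array medians subtracted, 30 with quantile normalization repeated), beside 44.4% of all probe sets. The median was -0.05 (-0.06 and -0.03 under these scalings), beside 0.01 over all probe sets. At an unadjusted p under 0.05, 7 were lower, against 4.9% of all probe sets, and they were Srsf1, Srsf3, Hnrnpa2b1, Hnrnpd, Hnrnph1, Hnrnph3 and Hnrnpm. In 10 genes each RSL array lay below each DMSO array, against 6.15% of all probe sets. Hnrnph1 was at -0.27 with the widest error (standard error 0.10, adjusted p = 0.416), Srsf3 at -0.17 (adjusted p = 0.366) and Srsf1 at -0.13 (adjusted p = 0.394). The mean over the 39 genes lay at 10.10 on each parental RSL array, against 10.14 to 10.18 on the parental DMSO arrays. The SD over all probe sets was 1.47 to 1.48 on parental RSL arrays and 1.47 to 1.51 on parental DMSO arrays, so these ranges overlapped. The part of the SD in this shift was not tested. Bulk RNA cannot tell fewer cells with a transcript from less of it per cell.

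**Figure D4:**
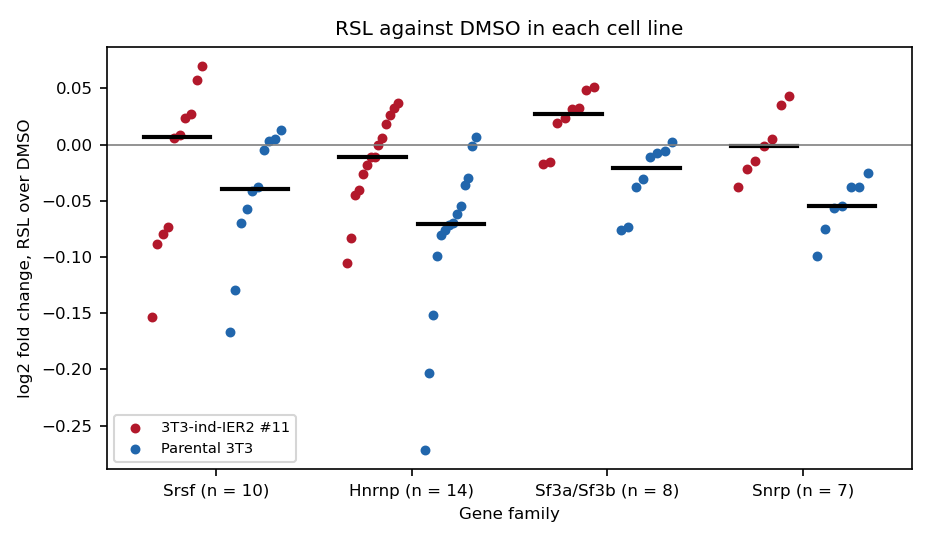
Log2 fold change of RSL over DMSO for each of the 39 splicing factor genes, by symbol family, in #11 cells (red) and parental cells (blue); points are ordered by value within a group and black bars are medians. In #11 cells the points lie on both sides of 0, and in parental cells 34 of 39 lie below it, with medians over all families of 0.00 and -0.05.

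The difference between the RSL effects in #11 and in parental cells passed in limma for 0 of the 39 genes, against 0.662% of all probe sets. At an unadjusted p under 0.05 there were 3, against 9.07% of all probe sets. Srsf1 was at 0.16 and Hnrnpul2 at 0.10, and Srsf5 was at -0.16 (adjusted p = 0.421, 0.543 and 0.537). The median difference was 0.06 (0.06 with array medians subtracted, 0.04 with quantile normalization repeated), beside -0.0041 over all probe sets. Below 0 lay 7 of the 39 genes (7 under both scalings), or 17.9%, beside 52.7% of all probe sets. The comparisons of this section and those between the cell lines use the same arrays, so their values are set side by side and not counted as separate evidence.

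**Figure D5:**
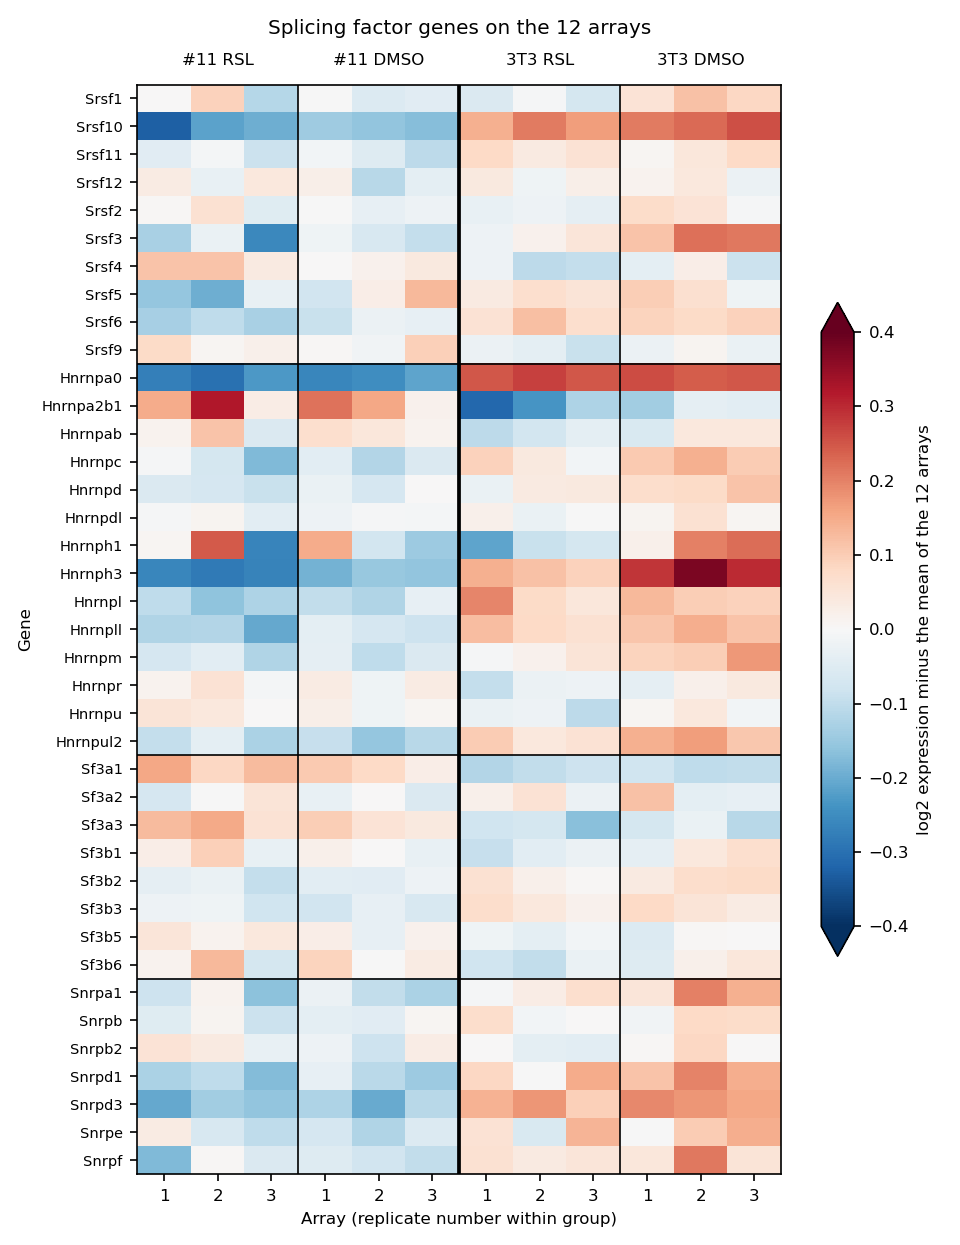
Log2 expression of the 39 splicing factor genes (rows, by symbol family) on the 12 arrays (columns), as the difference from each gene's mean over the 12 arrays; red is higher, blue is lower, and the scale ends at 0.4 on both sides. The 6 #11 arrays on the left and the 6 parental arrays on the right differ in Srsf10, Hnrnpa0, Hnrnph3 and Snrpd3, while columns within a cell line are more alike.

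The other parts of the splicing machinery were followed in 10 lists of 122 measured genes outside the 4 families. Under RSL, 18 of the 122 were lower and 30 higher in #11 than in parental cells, and under DMSO 25 were lower and 20 higher. The shares lower were 14.8% and 20.5%, beside 38.5% and 48.7% of the splicing factor genes and 16.8% and 14.5% of all probe sets. The shares higher were 24.6% and 16.4%, beside 10.3% and 7.69% of the splicing factor genes and 17.5% and 15.2% of all probe sets, and the counts of single lists below stand against these last shares. The medians were 0.02 under RSL and -0.02 under DMSO. Between RSL and DMSO in #11 cells, 1 of the 122 passed. It was Pspc1, a paraspeckle protein, which rose to 8.58, 8.61 and 8.61 under RSL, against 8.44, 8.40 and 8.38 under DMSO (log2 fold change 0.20, adjusted p = 0.0127). In parental cells, 0 of the 122 passed, and 70.5% lay below 0, beside 87.2% of the 39 splicing factor genes. All 10 SR-related coactivators lay below 0 there.

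Of those 10 coactivators, 4 were higher and 1 lower in #11 than in parental cells under RSL, and 1 was higher and 2 lower under DMSO. Pnn, the desmosome and speckle protein pinin, was higher under both, at 0.34 and 0.18 (adjusted p = 7.68e-06 and 0.00324), while Luc7l, a relative of a yeast U1 snRNP protein, was lower, at -0.10 and -0.14. Of the 9 kinases that phosphorylate SR and other splicing proteins, 4 were higher and 0 lower under RSL, and 2 were higher and 1 lower under DMSO. Dyrk1a, a kinase found in nuclear speckles, had the largest differences of the list, 0.57 and 0.44 (adjusted p = 9.70e-09 and 2.13e-07). Clk4, at 0.23, and Clk1, at 0.20, passed under RSL, and Clk3 under both, at 0.18 and 0.21.

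Among 16 proteins of the U1 and U4/U6.U5 snRNPs, 6 were higher and 2 lower under RSL, and 4 were higher and 2 lower under DMSO. Prpf6, a tri-snRNP bridging protein, was higher, at 0.50 and 0.33 (adjusted p = 3.39e-07 and 4.46e-05). Prpf31, which binds the U4 RNA and is mutated in human retinitis pigmentosa, was lower, at -0.28 and -0.32 (adjusted p = 1.09e-05 and 2.85e-06). Of 5 measured proteins of the LSm ring on U6, Lsm4 and Lsm6 were lower under both treatments, between -0.18 and -0.20, and Lsm2 was lower under DMSO, at -0.31. None of the 5 was higher. Of 6 genes for recognition of the 3′ splice site, U2af1l4, a relative of the small U2AF subunit, was the only one that passed, at -0.34 under RSL and -0.35 under DMSO.

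The 19 Prp19 complex and catalytic step genes had 4 higher and 2 lower under RSL, and 4 higher and 6 lower under DMSO. Cdc5l, a core protein of the Prp19 complex, was lower, at -0.23 and -0.32, and so was Cdc40, at -0.24 and -0.31. Dhx8, a helicase that releases the spliced mRNA, was higher, at 0.20 and 0.19. In the 16 genes of snRNP assembly, Wdr77, the partner of the methyltransferase Prmt5 that modifies Sm proteins, was lower, at -0.25 and -0.35 (adjusted p = 1.10e-05 and 3.34e-07). Smn1, whose product loads Sm rings, was lower too, at -0.18 and -0.21. In that list 2 were higher and 4 lower under RSL, and 1 was higher and 3 lower under DMSO. Of 8 minor spliceosome genes, Zmat5 and Pdcd7 were higher under both, between 0.12 and 0.21. Of 3 exon junction complex genes, Eif4a3 was higher under both, at 0.16 and 0.15, and Rbm8a was lower under DMSO, at -0.24.

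Of the 30 other splicing regulators, 7 were higher and 6 lower under RSL, and 5 were higher and 6 lower under DMSO. Pspc1 read 8.58, 8.61 and 8.61 in #11 cells under RSL, against 9.09, 9.10 and 9.11 in parental cells under RSL, a log2 fold change of -0.50 (adjusted p = 5.85e-08). Under DMSO it was at -0.74 (adjusted p = 4.74e-10). Mbnl3, a muscleblind protein, was higher, at 0.59 and 0.67 (adjusted p = 1.23e-09 and 2.68e-10), with 6.32, 6.43 and 6.35 in #11 cells under RSL, against 5.78, 5.79 and 5.76 in parental cells under RSL, so it lay below the median probe set in both. Ptbp3, a polypyrimidine tract binding protein, was higher, at 0.51 and 0.38, and Celf2 was lower, at -0.22 and -0.32.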

How the data were processed

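Labelled RNA was hybridized to 12 Affymetrix Mm430_2.0 arrays, 3 per group, and the sample labels gave each array's group. The authors deposited 1 table of log2 values; before that, per their methods, they assigned probes through a Custom CDF based on Entrez genes, corrected background by RMA and normalized by quantiles. The log base was read from the range, and how probes were summarised is not stated in the sources at hand. Quantile normalization gives every array nearly the same distribution, so a shift shared by most genes could not be seen. For RNA extraction the labels name Trizol and the methods peqGOLD RNAPure. All arrays were used, and there were 0 columns of other samples. Of 16539 probe sets, 64 controls were removed and 16475 tested; 15780 of these have 1 gene symbol and 695 are not named.

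The members and gene lists were chosen with earlier results of these data known. The symbol rule matched 53 RefSeq genes, of which 39 are analysed here, with symbols and coordinates from RefSeq (GRCm38.p6) by Entrez number. In limma 3.58.1 (R 4.3.3), 4 group means were fitted to the 12 arrays without a block, with 8 residual and 8.09 prior degrees of freedom. The 5 comparisons were RSL against DMSO in each cell line, the difference of the RSL effects, and #11 against parental cells under each treatment. P-values were adjusted by Benjamini-Hochberg over the 16475 probe sets and called at 0.05. An exact permutation of 3 against 3 arrays has 0.1 as its smallest p, and none is quoted. Precision is limited by the number of arrays, and standard errors of the members were 0.03 to 0.10. Named genes were, per comparison, the 10 called members of smallest p (the 3 smallest per direction if under 5 were called), the highest and lowest of each family and up to 3 called genes per list; further members were picked with their values known. Alternatives comprised blocking on replicate number, removal of the lowest 40% by mean log2, an intensity trend, array weights, subtraction of array medians, a repeat of quantile normalization, only the arrays compared, the methods' one-way analysis, and omission of each array. The fit was tested on simulated data.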

Additional observations from a re-analysis of the deposited data

Results flagged for a closer look

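One result stood out: the RSL effect on Ier2 differed between #11 and parental cells. The log2 fold change was -0.47 in #11 cells and 0.17 in parental cells (adjusted p = 4.64e-05 and 0.366), and the difference, #11 minus parental, was -0.64 (standard error 0.07, adjusted p = 0.000262 in limma). The levels were 8.55 ± 0.10 under RSL and 9.02 ± 0.06 under DMSO in #11 cells, and 8.75 ± 0.07 under RSL and 8.58 ± 0.05 under DMSO in parental cells (SD, n = 3 each). No such difference passed for any of the 39 splicing factor genes, and no group here was large enough to look for single outlying arrays.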

How the results depend on the processing

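The 19 genes lower in #11 cells under DMSO became 15 to 20 with single arrays left out, and 15 lower under RSL became 10 to 16. The genes higher in #11 cells under DMSO, 3, were 1 to 3 (1 without #11 DMSO replicate 1), and those higher under RSL, 4, were 4 to 8 (8 without #11 RSL replicate 3). The one-way analysis of the 2 groups compared, with Benjamini-Hochberg adjustment, gave 1 higher under DMSO, and 2 higher and 8 lower under RSL. For RSL in parental cells, 1 lower gene became 0 with the replicate block, 0 with only the arrays compared, 0 with the one-way analysis and Benjamini-Hochberg, 7 at its nominal p, 2 with array weights (Srsf3 added), and 0 or 1 with single arrays left out. For RSL in #11 cells, 0 lower genes became 2 with array weights (Hnrnph3 and Srsf5) and 2 at the nominal p. The difference of the RSL effects gave 4 higher at the nominal p, against 0 at the adjusted p. Counts at the nominal p stand at another threshold and are not read as calls gained. The shares of all probe sets under the nominal p, the one-way analysis and the array weights are not given here. The causes were not tested. No called value of Ier2 or of a splicing factor gene followed through the alternatives changed sign under any of them. The values of the markers and of the other splicing lists were not followed through them. Only the arrays compared could not be used for the difference. The labels do not say whether replicate numbers pair the arrays, and deviations within groups of 3 cannot decide it. Deviations of same-numbered arrays correlated between -0.30 and 0.22, with 4 of 18 pairs over 0.1. With the replicate block, #11 cells had 13 lower and 4 higher genes under RSL and 18 lower and 3 higher under DMSO; the calls of Hnrnpd and Hnrnpm under RSL and of Srsf11 and Sf3b2 under DMSO were lost.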
